A study of Mus musculus with 6 samples.

Results

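The genes described here are 40 genes of glycolysis, glycogen use and the tricarboxylic acid (TCA) cycle, chosen by gene symbol and not by a threshold on measured values. Earlier results of these data were known when the genes were chosen. Each of the 40 was read by 1 probe set, among 22662 gene symbols and 22206 probe sets on the array. Total RNA of C2C12 myotubes, multinucleate muscle cells grown from a mouse myoblast line, was hybridised to 6 Clariom S Mouse arrays. The study asked which transcripts a sugarcane top ethanolic extract (STEE), rich in polyphenols, alters in muscle cells, with emphasis on metabolism and mitochondria. The 3 groups had 2 arrays each. Ctrl-M myotubes were untreated, STEE30-M myotubes were given 30 µg/mL of the extract for 6 h, and STEE50-M myotubes were given 50 µg/mL for 6 h. All myotubes came from the same cell line and had differentiated for 6 days. The extract was given in serum-free Opti-MEM, and whether the controls were changed to the same medium or given the solvent was not stated in the sources used here, so extract and medium cannot be told apart.

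Glycolysis splits glucose into pyruvate in the cytosol, and muscle can also start it from its own glycogen store. Pyruvate is then reduced to lactate or carried into mitochondria, where the pyruvate dehydrogenase complex makes acetyl-CoA from it for the TCA cycle. Many of these steps are run by several isozymes, and differentiating muscle is known to take up muscle forms of some of them, such as Pfkm, Pgam2 and Eno3, beside forms that most cells use.

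Signals were log2 values, and a difference of 1 is a 2-fold change. The median signal of the arrays lay between 5.70 and 5.77, and the correlation of 2 arrays over all probe sets lay between 0.991 and 0.994, with a mean of 0.993 both within and between groups. The background level was set at 5.32, below which 95% of 1482 probe sets of taste, smell and pheromone receptors had their mean, since muscle cells hardly use these genes. By this measure 54.18% of all probe sets were above background. So were 37 of the 40 genes, but not Aldoc, Ldhb and Phkg1. All 17 markers of differentiated myotubes were above background, as were 9 of 10 myoblast and reserve cell markers, 7 of 7 proliferation markers and 5 of 6 fibroblast markers. Of the macrophage markers 1 of 5 was above it, Cd68, and none of the 4 adipocyte, 4 hepatocyte or 3 endothelial markers was.

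No common shift of these genes was seen at either dose. Taking an unadjusted p under 0.05 in the limma fit together with a linear fold of at least 1.2 as a call, 1 of the 40 genes was called in STEE30-M against Ctrl-M (2.5%), where 4.09% of all probe sets were called. In STEE50-M against Ctrl-M 1 of 40 was called (2.5%), beside 5.05% of all probe sets. The called genes were Phkg1, lower in STEE30-M, and Sucla2, higher in STEE50-M. Split by direction, 2.04% of all probe sets were called higher and 2.06% lower in STEE30-M, and 2.36% higher and 2.69% lower in STEE50-M, so that 1 gene of 40 was close to the share called over the array as a whole. No gene had a Benjamini-Hochberg adjusted p under 0.05, and no probe set of the whole array had one (limma), although 909 and 1121 probe sets had an unadjusted p under 0.05. The smallest adjusted p among the 40 genes was 0.998 at the lower dose and 0.952 at the higher. The 2 arrays of a group were called biological samples in the methods and duplicates in the design text. For its quantitative PCR the study counted them among its biological replicates. Whether they were separate cultures was not stated in the sources used here. The p-values thus measured only the spread between arrays, which may be technical in part.

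The median log2 fold change of the 40 genes was -0.0125 in STEE30-M, beside -0.005 over all probe sets, and -0.01 in STEE50-M, the same as over all probe sets. In STEE30-M 19 genes had a positive and 21 a negative fold change, between -0.53 and 0.49. In STEE50-M the counts were 20 and 20 and the range -0.52 to 0.63. The typical size of a change without regard to its sign had a median of 0.10 in STEE30-M and 0.12 in STEE50-M, against 0.14 and 0.16 over all probe sets above background. The 95% interval of a single fold change reached a median of 0.49 to either side, which is wider than most of these changes. Changes of 2-fold or more lay outside the interval for 38 of 40 genes in STEE30-M and for 32 of 40 in STEE50-M, and changes of 1.5-fold or more for 18 and 15. The genes whose interval in STEE50-M did include a 2-fold change were Hk2, Pfkm, Pfkp, Pgam2, Ldhb, Pygm, Phka1 and Sucla2.

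**Figure D1:**
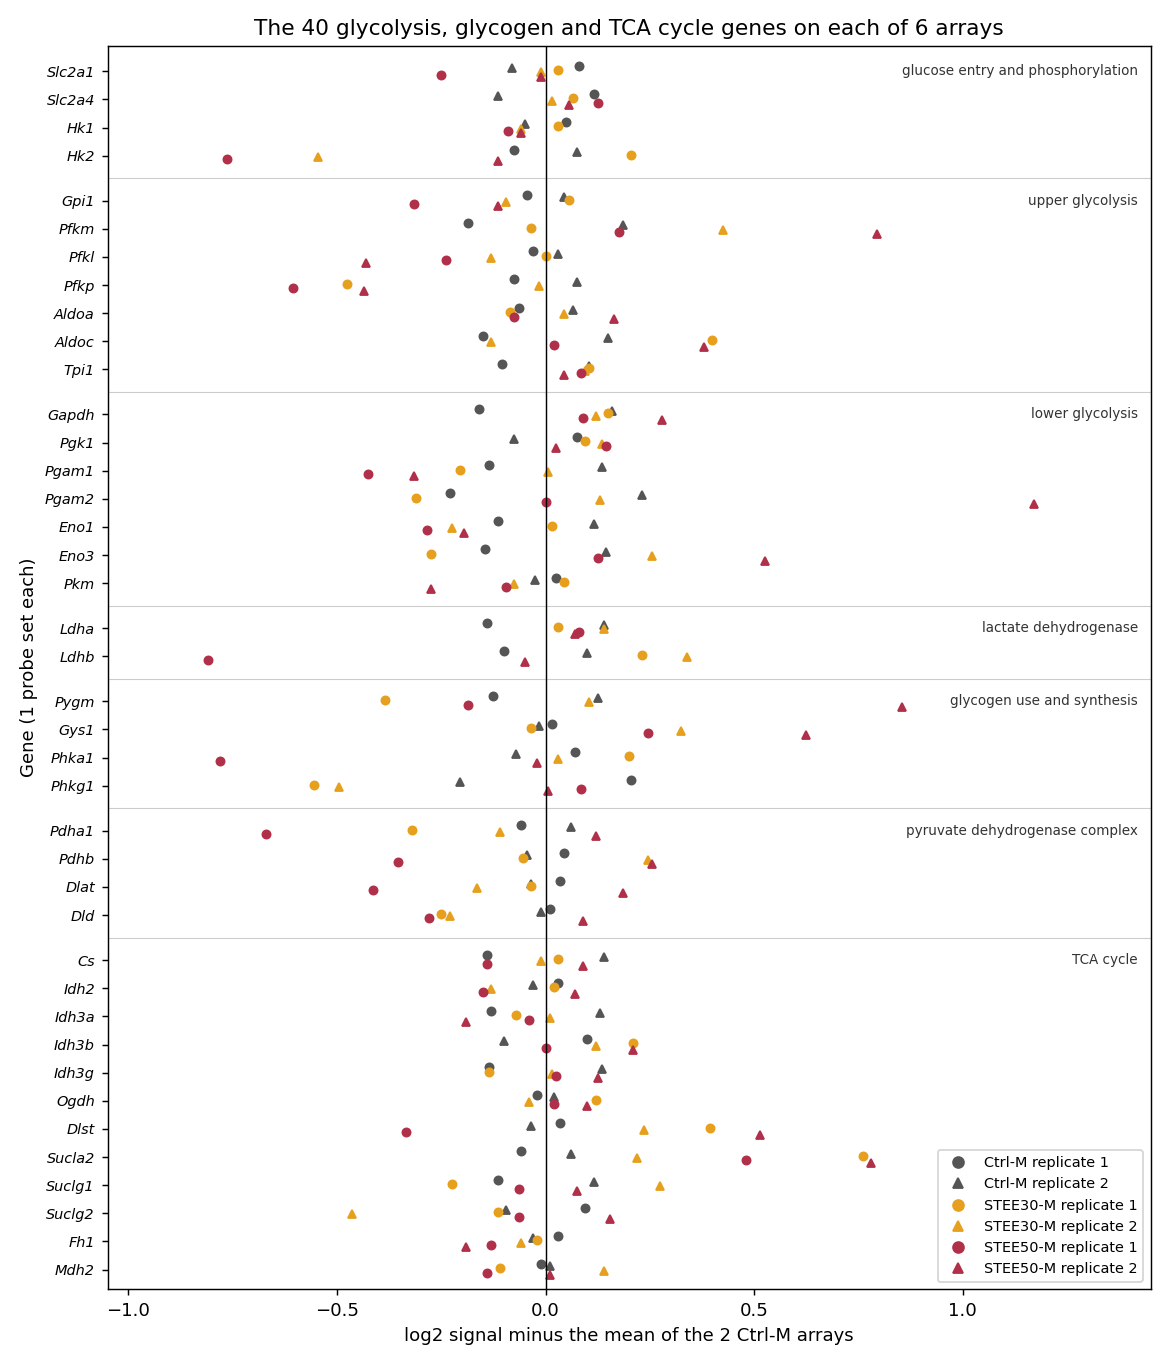
Signal of each of the 40 genes on each of the 6 arrays, as log2 signal minus the mean of the 2 Ctrl-M arrays (x axis), with genes grouped by their place in the pathway (y axis). Circles are replicate 1 and triangles replicate 2, in grey for Ctrl-M, orange for STEE30-M and red for STEE50-M. Sucla2 is the gene whose 4 treated points all lie on one side of both Ctrl-M points, and the point farthest to the right is Pgam2 on the second STEE50-M array, at a signal of 10.08.

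**Figure D2:**
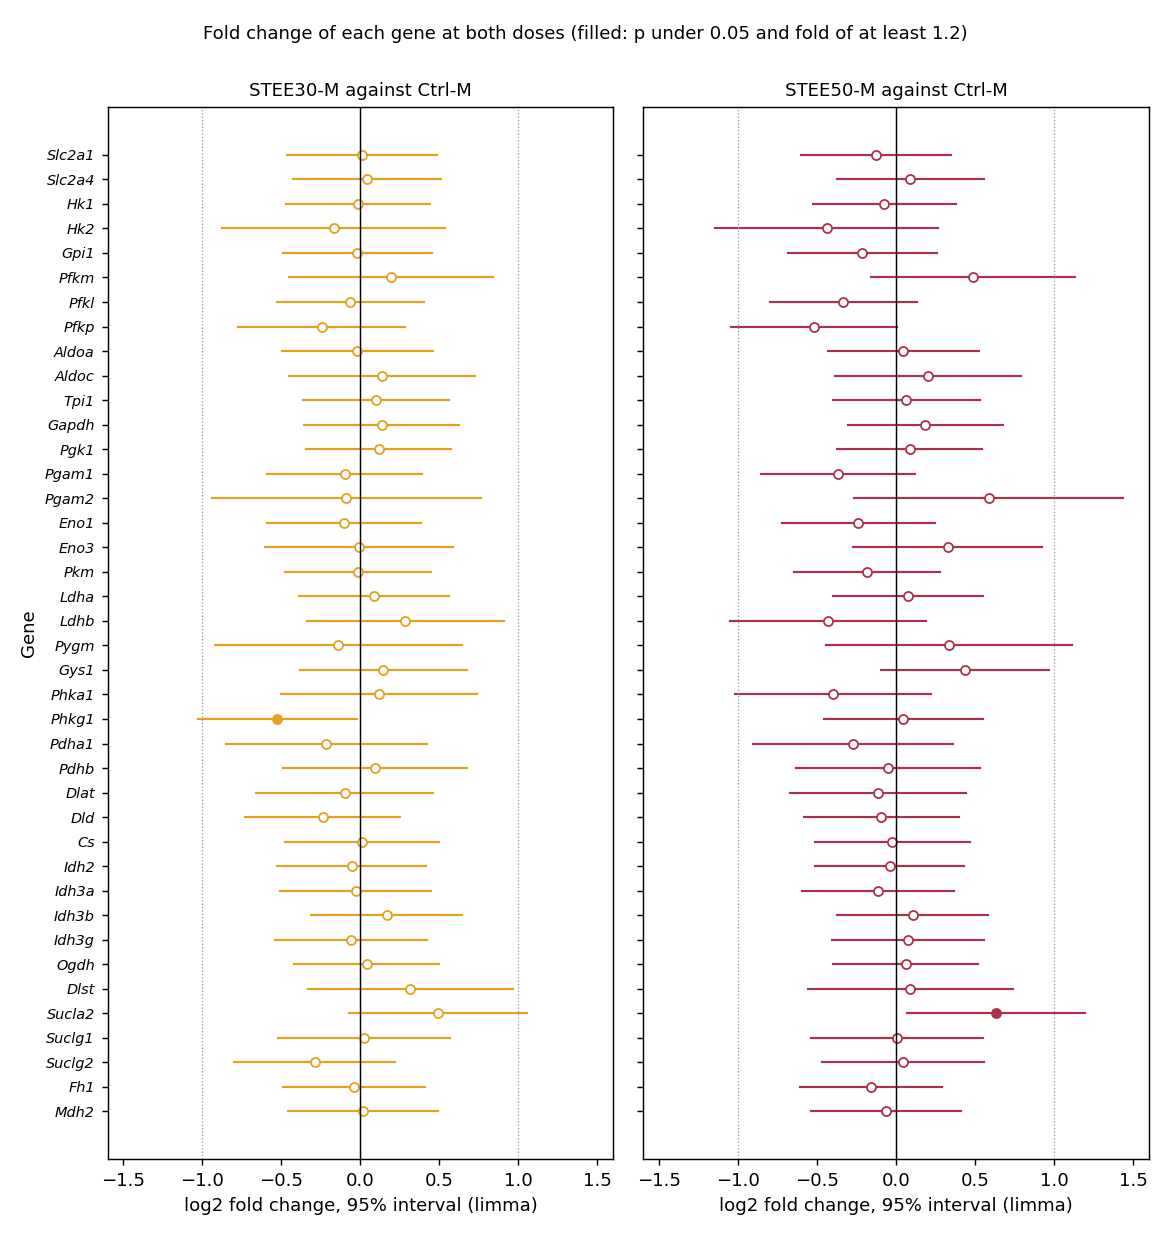
The log2 fold change of each gene against Ctrl-M (x axis) with its 95% interval from limma (bars), for STEE30-M on the left and STEE50-M on the right, 2 arrays a group. Filled points passed p under 0.05 and a fold of at least 1.2, which were Phkg1 on the left and Sucla2 on the right, and dotted lines mark a 2-fold change.

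Glucose entry and phosphorylation was covered by 4 genes, of which none was called at either dose. Slc2a1, the basal glucose transporter GLUT1, was at 14.48 and 14.32 in Ctrl-M, 14.43 and 14.39 in STEE30-M and 14.15 and 14.39 in STEE50-M. Slc2a4, the insulin-regulated transporter GLUT4, was barely above background, at 5.42 and 5.19 in Ctrl-M, 5.37 and 5.32 in STEE30-M and 5.43 and 5.36 in STEE50-M. Both transporters overlapped between groups, with log2 fold changes of -0.13 for Slc2a1 and 0.09 for Slc2a4 in STEE50-M. Hk1, the hexokinase of most tissues, varied least of the 4, between 14.11 and 14.25 on the 6 arrays. Hk2, the hexokinase that muscle adds and that binds mitochondria, was at 11.47 and 11.62 in Ctrl-M, 11.75 and 11.00 in STEE30-M and 10.78 and 11.43 in STEE50-M. Both STEE50-M arrays lay below both Ctrl-M arrays, but the replicates of each treated group differed by 0.75 and 0.65, more than the fold change of -0.44 ± 0.31 (SE, n = 2 arrays a group, limma unadjusted p = 0.191, adjusted p = 0.966).

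Upper glycolysis, from glucose 6-phosphate to the triose phosphates, was covered by 7 genes, and none was called. Its committed step is phosphofructokinase, whose 3 subunits are the muscle form Pfkm, the liver form Pfkl and the platelet form Pfkp. Pfkm (chr15:98092589-98132447) was at 11.55 and 11.92 in Ctrl-M, 11.70 and 12.16 in STEE30-M and 11.91 and 12.53 in STEE50-M, a log2 fold change of 0.49 ± 0.28 (SE) in STEE50-M with an unadjusted p of 0.123. Pfkl was at 11.59 and 11.65 in Ctrl-M, 11.62 and 11.49 in STEE30-M and 11.38 and 11.19 in STEE50-M. Pfkp (chr13:6579874-6649060) was at 10.89 and 11.04 in Ctrl-M, 10.49 and 10.95 in STEE30-M and 10.36 and 10.53 in STEE50-M. Both STEE50-M arrays lay below both Ctrl-M arrays for Pfkl and for Pfkp, whereas Pfkm had its highest value in STEE50-M and overlapped. The fold change of Pfkp in STEE50-M, -0.52 ± 0.23 (SE, n = 2 arrays a group), missed the threshold with an unadjusted p of 0.0526 and an adjusted p of 0.952 in limma, and that of Pfkl was -0.34 with an unadjusted p of 0.138. Of the aldolases, Aldoa, the muscle form, stayed between 15.92 and 16.17 and Aldoc, the brain form, was not above background, between 4.17 and 4.72. Gpi1, glucose 6-phosphate isomerase, and Tpi1, triose phosphate isomerase, had fold changes of -0.02 and 0.10 in STEE30-M and of -0.22 and 0.07 in STEE50-M.

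Lower glycolysis, from glyceraldehyde 3-phosphate to pyruvate, was covered by 7 genes and none was called. Gapdh, which the study also used as the reference gene of its quantitative PCR, was at 17.26 and 17.58 in Ctrl-M, 17.57 and 17.54 in STEE30-M and 17.51 and 17.70 in STEE50-M. Its fold changes of 0.14 and 0.19 were smaller than the gap of 0.32 between the 2 Ctrl-M arrays. Pgk1, Eno1 and Pkm, which have no known restriction to muscle, had fold changes between -0.24 and 0.09 in STEE50-M, and the probe set of Eno1 is also annotated to its near-identical copy Eno1b. Eno3, the muscle enolase, was at 12.77 and 13.06 in Ctrl-M, 12.64 and 13.17 in STEE30-M and 13.04 and 13.44 in STEE50-M. Eno1, the enolase of most tissues, was at 17.63 and 17.86 in Ctrl-M, 17.76 and 17.52 in STEE30-M and 17.46 and 17.55 in STEE50-M. Of these enolases, Eno1 but not Eno3 had both STEE50-M arrays below both Ctrl-M arrays. The phosphoglycerate mutases also had fold changes of opposite sign in STEE50-M. Pgam1 (chr19:41911871-41918665), the form of most tissues, was at 13.80 and 14.07 in Ctrl-M, 13.73 and 13.94 in STEE30-M and 13.51 and 13.62 in STEE50-M, a fold change of -0.37 ± 0.21 (SE) in STEE50-M with an unadjusted p of 0.120 in limma. Pgam2 (chr11:5801637-5803796), the muscle form, was at 8.68 and 9.14 in Ctrl-M, 8.60 and 9.04 in STEE30-M and 8.91 and 10.08 in STEE50-M. Its fold change of 0.59 ± 0.37 (SE, unadjusted p of 0.154 in limma) came from the second STEE50-M array, since the first lay between the 2 Ctrl-M arrays and the value without the second array was 0.00.

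The 250 bases before the start of these mutase genes (RefSeq, GRCm38.p6) are shown because the signs of their fold changes in STEE50-M differed, though neither gene was called. The signs also differed in other pairs, such as Pfkm and Pfkl or Eno3 and Eno1, whose bases are not shown. A link between the letters and the fold changes was not tested. Capitals mark the E-box CANNTG, the letters that myogenic factors such as MyoD can bind, and the core ACGTG of the hypoxia response element. An E-box spelled CACGTG would hold both. Pgam2, at chr11:5803797-5804046 on the minus strand, held 5 E-boxes and no ACGTG, and Pgam1, at chr19:41911621-41911870 on the plus strand, held 1 ACGTG and no E-box.
Pgam2 promoter: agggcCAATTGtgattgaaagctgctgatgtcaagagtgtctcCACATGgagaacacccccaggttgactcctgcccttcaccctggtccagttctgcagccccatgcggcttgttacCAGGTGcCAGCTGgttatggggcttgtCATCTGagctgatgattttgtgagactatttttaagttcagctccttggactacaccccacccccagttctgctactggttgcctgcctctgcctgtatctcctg
Pgam1 promoter: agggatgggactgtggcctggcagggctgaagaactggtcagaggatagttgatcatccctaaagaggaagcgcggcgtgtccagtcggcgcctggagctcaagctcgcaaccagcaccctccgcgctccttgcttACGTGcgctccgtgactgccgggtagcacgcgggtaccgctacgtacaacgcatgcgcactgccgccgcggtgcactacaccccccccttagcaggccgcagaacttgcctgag
Among 32851 RefSeq starts of mouse genes, 66.2% held an E-box in this window and 16.6% an ACGTG on either strand. For the 40 genes, of which 38 were matched with 54 starts, the shares were 70.4% and 35.2%. A match describes letters only.

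Lactate dehydrogenase turns pyruvate into lactate and back. Ldha, the form that prevails in glycolytic muscle, was at 15.80 and 16.08 in Ctrl-M, 15.97 and 16.08 in STEE30-M and 16.02 and 16.01 in STEE50-M, with fold changes of 0.09 and 0.08. Ldhb (chr6:142490249-142507957), the heart form, was not above background, at 5.07 and 5.27 in Ctrl-M, 5.40 and 5.51 in STEE30-M and 4.36 and 5.12 in STEE50-M. Against Ctrl-M its log2 fold changes of 0.29 and -0.43 were not called (unadjusted p of 0.325 and 0.151, limma).

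Glycogen use and synthesis was covered by 4 genes. Pygm (chr19:6384408-6398464), the muscle glycogen phosphorylase that releases glucose 1-phosphate, was at 11.99 and 12.24 in Ctrl-M, 11.73 and 12.22 in STEE30-M and 11.93 and 12.97 in STEE50-M. The second STEE50-M array was the highest and the first lay below both Ctrl-M arrays, so that the fold change of 0.34 turned to -0.19 without the second array and was 0.86 without the first. Gys1 (chr7:45434839-45456617), the muscle glycogen synthase, was at 11.47 and 11.44 in Ctrl-M, 11.42 and 11.78 in STEE30-M and 11.70 and 12.08 in STEE50-M. It was one of 2 genes with both STEE50-M arrays above both Ctrl-M arrays, and its fold change of 0.44 ± 0.23 (SE) had an unadjusted p of 0.0963 and an adjusted p of 0.952 in limma. Phosphorylase kinase, which switches phosphorylase on, was covered by 2 subunits. Phka1, the regulatory alpha subunit of muscle, was at 8.64 and 8.50 in Ctrl-M, 8.77 and 8.60 in STEE30-M and 7.79 and 8.55 in STEE50-M. Its fold change of -0.40 in STEE50-M came from the first array, since the second lay between the 2 Ctrl-M arrays. Phkg1 (chr5:129863431-129879134), the catalytic subunit of muscle, was not above background. It was at 5.43 and 5.02 in Ctrl-M, 4.67 and 4.73 in STEE30-M and 5.31 and 5.23 in STEE50-M, which placed both STEE30-M arrays below the other 4. Its log2 fold change in STEE30-M was -0.53 ± 0.22 (SE, n = 2 arrays a group, limma unadjusted p = 0.0425, adjusted p = 0.998). This call was lost in 5 of the 6 fits that left out 1 array, with unadjusted p between 0.0545 and 0.282 and fold changes from -0.32 to -0.56, and stood without Ctrl-M replicate 2 at a fold change of -0.73.

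The pyruvate dehydrogenase complex was covered by its 4 catalytic genes, and none was called. Pdha1, the E1 alpha subunit that the pyruvate dehydrogenase kinases phosphorylate, was at 11.67 and 11.79 in Ctrl-M, 11.41 and 11.62 in STEE30-M and 11.06 and 11.85 in STEE50-M. Dld, the E3 subunit that the complex shares with the 2-oxoglutarate dehydrogenase complex, was at 13.35 and 13.33 in Ctrl-M, 13.09 and 13.11 in STEE30-M and 13.06 and 13.43 in STEE50-M. Both STEE30-M arrays lay below both Ctrl-M arrays for Pdha1 and Dld, with fold changes of -0.22 and -0.24 and unadjusted p of 0.461 and 0.296 in limma. In STEE50-M the first array lay below and the second above both Ctrl-M arrays for each of the 4 genes, Pdhb (E1 beta) and Dlat (E2) included. The mean of the 4, taken relative to each gene's mean over the 6 arrays, was -0.35 on the first STEE50-M array and 0.25 on the second, and between -0.08 and 0.09 on the other arrays.

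The TCA cycle was covered by 12 genes, all above background. Of these, 11 were not called at either dose and had fold changes between -0.29 and 0.32 in STEE30-M and between -0.16 and 0.11 in STEE50-M. They included Cs, citrate synthase, with a fold change of -0.03 in STEE50-M, Idh3a and Idh3g, subunits of the NAD-dependent isocitrate dehydrogenase, at -0.12 and 0.08, Ogdh, the E1 subunit of 2-oxoglutarate dehydrogenase, at 0.06, and Mdh2, mitochondrial malate dehydrogenase, at -0.07. The exception was Sucla2 (chr14:73552786-73596144), the beta subunit of the ATP-forming succinyl-CoA ligase. Sucla2 was at 6.10 and 6.22 in Ctrl-M, 6.92 and 6.38 in STEE30-M and 6.64 and 6.94 in STEE50-M. All 4 treated arrays lay above both Ctrl-M arrays, which held for 1 of the 40 genes and for 5.68% of all probe sets. All 4 treated arrays lay below both Ctrl-M arrays for none of the 40, and for 6.77% of all probe sets.

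The log2 fold change of Sucla2 was 0.49 ± 0.25 (SE, n = 2 arrays a group) in STEE30-M, with an unadjusted p of 0.0804, and 0.63 ± 0.25 in STEE50-M, with an unadjusted p of 0.0323 and an adjusted p of 0.952 in limma. The comparisons share the Ctrl-M arrays, and the doses overlapped, with a difference of 0.14 and a 95% interval from -0.42 to 0.70. The study had itself picked Sucla2 from these arrays, so its direction is not independent evidence. The call in STEE50-M was lost without Ctrl-M replicate 1 (fold change 0.57), Ctrl-M replicate 2 (0.69) or STEE50-M replicate 2 (0.48), and in the unmoderated test, where its unadjusted p was 0.0915. Suclg1, the alpha subunit that pairs with Sucla2, had fold changes of 0.03 and 0.01. Suclg2, the beta subunit of the GTP-forming ligase, had fold changes of -0.29 and 0.05. The 250 bases before the start of Sucla2 (RefSeq, GRCm38.p6, chr14:73552536-73552785, plus strand) are shown because it was the called gene of the TCA cycle, with its 2 E-boxes in capitals.
Sucla2 promoter: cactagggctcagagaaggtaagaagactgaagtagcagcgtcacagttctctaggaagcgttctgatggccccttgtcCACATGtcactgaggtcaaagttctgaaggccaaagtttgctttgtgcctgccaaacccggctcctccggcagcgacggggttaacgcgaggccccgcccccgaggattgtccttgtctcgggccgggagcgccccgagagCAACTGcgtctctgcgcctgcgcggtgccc

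The order of the arrays was also counted without a model. In STEE30-M, 5 of the 40 genes had both arrays above both Ctrl-M arrays (12.5%, against 14.5% of all probe sets) and 4 had both below (10%, against 15.8%). In STEE50-M, 2 genes were above (5%, against 16.1%) and 9 below (22.5%, against 18.6%). The 9 genes were Hk1, Hk2, Gpi1, Pfkl, Pfkp, Pgam1, Eno1, Pkm and Fh1, of which Fh1, fumarate hydratase, belongs to the TCA cycle and the others to glycolysis. Their fold changes in STEE50-M lay between -0.52 and -0.08, and none was called.

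Muscle-enriched genes had mostly positive and common forms mostly negative fold changes in STEE50-M. Of 10 genes known as muscle-enriched (Slc2a4, Hk2, Pfkm, Aldoa, Pgam2, Eno3, Pygm, Gys1, Phka1 and Phkg1), 8 had a positive fold change in STEE50-M, with a median of 0.21. Of 8 genes known as common forms or as forms of other tissues (Slc2a1, Hk1, Pfkl, Pfkp, Aldoc, Pgam1, Eno1 and Ldhb), 1 was positive and 7 were negative, with a median of -0.29. Over all probe sets, 48.1% were positive. Phkg1, Aldoc and Ldhb were not above background, and Slc2a4 was barely above it. The lists are not matched gene for gene, since Pygm, Gys1, Phka1 and Phkg1 have no partner and Ldhb's is in neither, and Hk2 and Hk1 were both negative and Aldoa and Aldoc both positive. Neither class held a called gene in this comparison, and the median over all probe sets was -0.01. In STEE30-M the medians were -0.02 and -0.04. These are descriptions without a test, on lists chosen with earlier results of these arrays known.

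The arrays showed where the muscle forms differed. Relative to each gene's mean over the 6 arrays, the 10 muscle-enriched genes averaged -0.08 and 0.01 in Ctrl-M, -0.16 and -0.01 in STEE30-M and -0.14 and 0.37 in STEE50-M, so that the second STEE50-M array stood above the other 5 and the first lay within them. All 10 genes were above their own mean on that array. It was not highest for the muscle forms alone, since the 40 genes together averaged 0.14 on it and the 12 TCA cycle genes 0.11, each the highest of the 6 arrays. The 8 common forms averaged 0.02 and 0.14 in Ctrl-M, 0.09 and 0.06 in STEE30-M and -0.25 and -0.06 in STEE50-M, where both STEE50-M arrays lay lowest. Without STEE50-M replicate 2 the median of the muscle-enriched genes in STEE50-M was 0.04, and without STEE50-M replicate 1 that of the common forms was -0.13. The second STEE50-M array read higher than the first for 31 of the 40 genes (50.2% of all probe sets), with a median gap of 0.22, whereas the second array was higher for 24 genes in Ctrl-M and for 19 in STEE30-M.

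**Figure D3:**
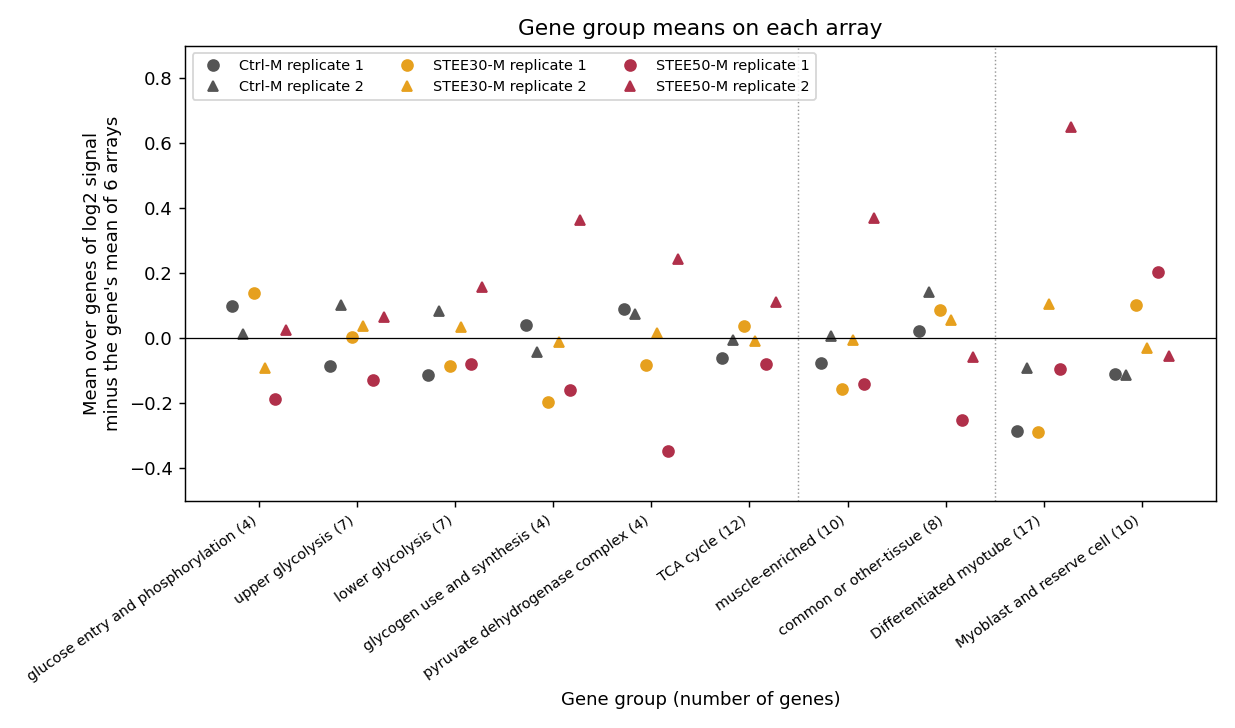
Mean over the genes of a group on each array, as log2 signal minus the gene's mean over the 6 arrays (y axis), for 6 steps of the pathway, for muscle-enriched and common forms, and for 2 marker lists (x axis, number of genes in brackets). Circles are replicate 1 and triangles replicate 2, in grey for Ctrl-M, orange for STEE30-M and red for STEE50-M. The second STEE50-M array stands above the other 5 for muscle-enriched genes (0.37) and for differentiated myotube markers (0.65). It also does for lower glycolysis (0.16), glycogen use and synthesis (0.37), the pyruvate dehydrogenase complex (0.25) and the TCA cycle (0.11). It does not for glucose entry and phosphorylation (0.025), upper glycolysis (0.07), common forms (-0.06) or myoblast and reserve cell markers (-0.05). For lower glycolysis only 3 of the 7 genes were above their own mean on that array, and their median was -0.04.

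Markers of myotube differentiation were also highest on the second STEE50-M array. All 17 markers had a positive fold change in STEE50-M, with a median of 0.43, where 48.1% of all probe sets were positive. On the second STEE50-M array all 17 were above their own mean over the 6 arrays, but on the first only 6 were. Of the 17, 3 were called higher, the embryonic myosin Myh3, the fast myosin Myh2 and the calcium-binding Casq1, beside 2.36% of all probe sets. Relative to each marker's mean, the myotube markers averaged -0.29 and -0.09 in Ctrl-M, -0.29 and 0.11 in STEE30-M and -0.09 and 0.65 in STEE50-M. Their mean log2 signals were 13.86 and 14.61 on the STEE50-M arrays and 13.67 to 14.06 on the other 4, so that the second STEE50-M array was the highest, as for the muscle forms. The 10 myoblast and reserve cell markers averaged 0.20 and -0.05 on the STEE50-M arrays and between -0.11 and 0.10 on the others. Of these 10, 1 was called, Notch3, which was higher in STEE50-M (log2 fold change 1.095) and in STEE30-M (0.72). Its adjusted p in limma was 0.952 and 0.998, and the comparisons share the Ctrl-M arrays. Over all probe sets, 2.36% and 2.04% were called higher. The 7 proliferation markers averaged 0.14 and -0.25 in STEE50-M, and 0.27 and -0.20 on the arrays of the lower dose, with 1 of 7 above its own mean on the second STEE50-M array and none called. The 6 fibroblast markers averaged 0.31 and -0.08 in STEE50-M and between -0.22 and 0.15 on the others. Of these 6, Dpt was called higher in STEE50-M (0.77, adjusted p of 0.952 in limma). Of the 5 macrophage markers, Csf1r, not above background, was called lower in STEE50-M (-0.56), beside 2.69% of all probe sets. The part of a different state of differentiation, or of other cells, in the values of the muscle forms was not tested. In bulk RNA a lower share of one kind of cell and less RNA per cell cannot be told apart.

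Within-array differences of 8 isoform pairs, muscle form minus other form, were set relative to their Ctrl-M mean. For Pfkm and Pfkp the difference had changed by 0.44 and 0.44 on the STEE30-M arrays and by 0.78 and 1.23 on the STEE50-M arrays, while the Ctrl-M arrays lay at -0.11 and 0.11. For Pgam2 and Pgam1 the changes were -0.11 and 0.13 in STEE30-M and 0.43 and 1.49 in STEE50-M. For Eno3 and Eno1 they were -0.29 and 0.48, and 0.41 and 0.72. Both STEE50-M arrays thus lay above both Ctrl-M arrays in these 3 pairs. The same was seen for Pfkm and Pfkl (mean 0.82 in STEE50-M), for Ldha and Ldhb (0.51) and for Slc2a4 and Slc2a1 (0.22), but Ldhb was not above background and Slc2a4 barely so. The mean change in STEE50-M was negative for Hk2 and Hk1 (-0.37) and for Aldoa and Aldoc (-0.16), of which Aldoc was not above background. Of single probe sets, 16.1% had both STEE50-M arrays above both Ctrl-M arrays, and no share over other pairs of genes was computed. The pairs are not independent, since Pfkm enters both phosphofructokinase pairs, and they were chosen with earlier results of these arrays known. These values describe the arrays and were not tested.

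**Figure D4:**
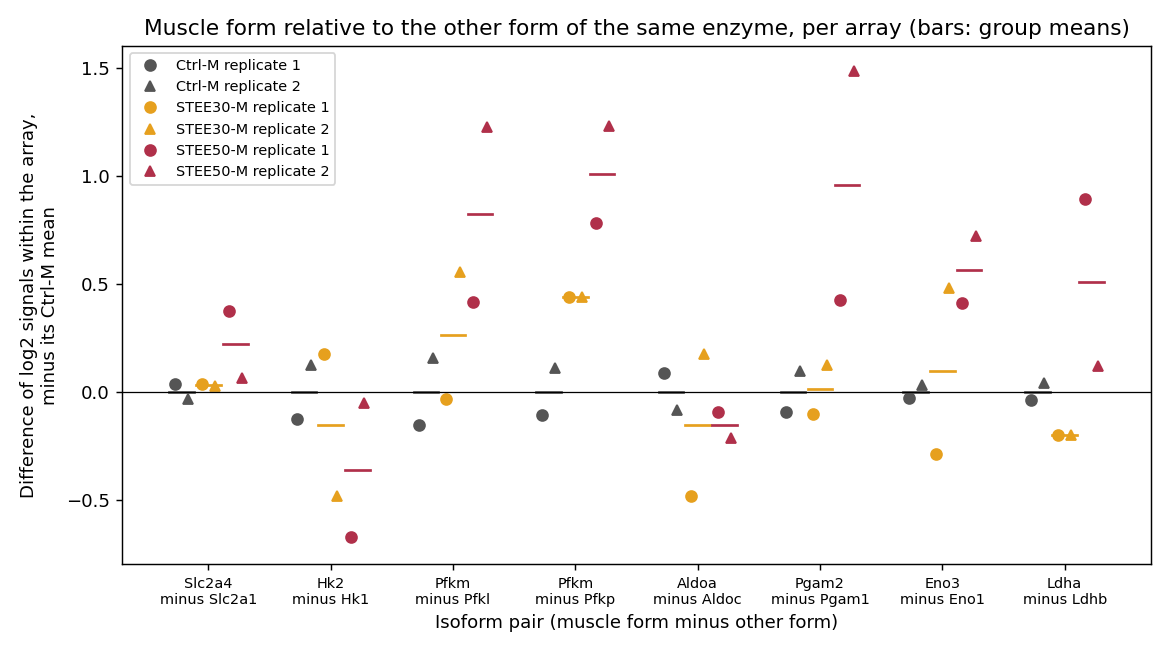
Change in the within-array difference between the muscle form and the other form of an enzyme, relative to its Ctrl-M mean in log2 units (y axis), for 8 pairs (x axis). Points are arrays (circles replicate 1, triangles replicate 2) and bars are group means. The STEE50-M points lie above both Ctrl-M points in 6 pairs, among them Pfkm minus Pfkp at 0.78 and 1.23 and Pgam2 minus Pgam1 at 0.43 and 1.49. No share over other pairs of genes was computed, and Pfkm enters both phosphofructokinase pairs.

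Between the doses, 2 of the 40 genes were called in STEE50-M against STEE30-M (5%), where 4.61% of all probe sets were called, 2.25% higher and 2.36% lower. Phkg1 was higher by 0.57 ± 0.22 (SE, n = 2 arrays a group, limma unadjusted p = 0.0306, adjusted p = 0.997) and Ldhb was lower in STEE50-M, with a log2 fold change of -0.72 ± 0.27 (unadjusted p = 0.0287, adjusted p = 0.997). Neither probe set was above background. The call of Phkg1 was lost without any 1 of the 4 arrays of these groups, with fold changes from 0.53 to 0.61. That of Ldhb was lost without STEE30-M replicate 1 (-0.77), STEE30-M replicate 2 (-0.66) or STEE50-M replicate 1 (-0.34), and was -1.10 without STEE50-M replicate 2. Over the 40 genes, 16 fold changes were positive and 24 negative, with a median of -0.03 (-0.01 over all probe sets). Both STEE50-M arrays lay above both STEE30-M arrays for 3 genes (7.5%, against 13.5% of all probe sets) and below for 8 (20%, against 14.9%). Pgam2 had the largest positive value, 0.68 ± 0.37 (SE, unadjusted p of 0.106 in limma), but it was 0.09 without STEE50-M replicate 2 and 1.26 without STEE50-M replicate 1.

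In 7 lists of other genes of these pathways 137 genes outside the 40 were measured, of which 105 were above background. In STEE30-M 4 were called higher and 2 lower (4.38%, beside 4.09% of all probe sets), and in STEE50-M none higher and 4 lower (2.92%, beside 5.05%), with medians of 0.02 and -0.04. Among 17 other glycolytic enzymes and isozymes, the glucose transporter gene Slc2a8 was called higher and the liver pyruvate kinase gene Pklr lower in STEE30-M, neither of them above background, and none was called in STEE50-M. The call of Slc2a8 (0.51) stood only without STEE30-M replicate 2 (0.72) and that of Pklr (-0.50) only without either STEE50-M array, and without STEE30-M replicate 1 the fold change of Slc2a8 was 0.30. Of 12 genes of fructose 2,6-bisphosphate and gluconeogenesis, Pfkfb1, a kinase and phosphatase of fructose 2,6-bisphosphate, was lower in STEE30-M (-0.53, unadjusted p of 0.0421 in limma). Of 23 other glycogen genes, Ppp1r3a, the muscle subunit that targets protein phosphatase 1 to glycogen, was lower in STEE50-M (-0.69, unadjusted p of 0.0472). Of 14 genes of the pentose phosphate and hexosamine pathways, Gfpt2, which opens hexosamine synthesis, was higher in STEE30-M (0.53, unadjusted p of 0.0449). The call of Pfkfb1 stood only without STEE30-M replicate 2 (-0.73), and without STEE30-M replicate 1 its fold change was -0.32. That of Ppp1r3a was lost without Ctrl-M replicate 1 (-0.57), Ctrl-M replicate 2 (-0.80) or STEE50-M replicate 1 (-0.35). That of Gfpt2 was lost without Ctrl-M replicate 2 (0.35), STEE30-M replicate 1 (0.53) or STEE30-M replicate 2 (0.53).

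The pyruvate and lactate gates held the smallest unadjusted p of these lists in STEE50-M. Mpc2 (chr1:165461260-165481218), a subunit of the mitochondrial pyruvate carrier, was at 7.73 and 7.89 in Ctrl-M, 7.43 and 7.84 in STEE30-M and 7.04 and 6.97 in STEE50-M. Both STEE50-M arrays lay below the other 4, with a log2 fold change of -0.81 ± 0.22 against Ctrl-M (SE, n = 2 arrays a group, limma unadjusted p = 0.00607, adjusted p = 0.952), and the call stood in each of the 6 fits that left out 1 array, with unadjusted p from 0.00458 to 0.0435. Its partner Mpc1 had a fold change of 0.06. Pdk4, the pyruvate dehydrogenase kinase that fasting raises, had fold changes of 0.02 and -0.05 at 30 and 50 µg/mL. The lactate transporter gene Slc16a7, not above background, was called higher in STEE30-M (0.63), a call lost without Ctrl-M replicate 1 (0.33), STEE30-M replicate 1 (0.71) or STEE30-M replicate 2 (0.56).

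Of 28 other genes of the TCA cycle, malate and anaplerosis, Aco1 (chr4:40143265-40199009), the cytosolic aconitase that also serves as an iron regulatory protein, was called. It was at 11.59 and 11.85 in Ctrl-M, 11.64 and 11.20 in STEE30-M and 10.67 and 11.17 in STEE50-M, a log2 fold change in STEE50-M of -0.80 ± 0.26 (SE, limma unadjusted p = 0.0139, adjusted p = 0.952). The call of Aco1 was lost when Ctrl-M replicate 2 was left out (fold change -0.67) or STEE50-M replicate 1 (-0.55). Of 28 regulators and glucose or hypoxia responsive genes, Car9 was called higher in STEE30-M and Ankrd37 lower in STEE50-M, both hypoxia responsive and neither above background. The call of Car9 (0.53) was lost without Ctrl-M replicate 1 (0.44), Ctrl-M replicate 2 (0.62) or STEE30-M replicate 1 (0.37), and that of Ankrd37 (-0.67) without Ctrl-M replicate 1 (-0.65) or STEE50-M replicate 2 (-0.57). The fold changes in STEE50-M were -0.26 for Hif1a, the oxygen-regulated transcription factor subunit, 0.16 for Txnip, a glucose-responsive gene, and 0.44 for Ppargc1a, the coactivator PGC-1α, with unadjusted p of 0.259, 0.45 and 0.0772 in limma.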

How the data were processed

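RNA from the C2C12 myotubes was hybridised to 6 arrays, and each array was given its group and replicate number from the labels. The log2 signals were made by the authors with SST-RMA over the 6 arrays (GC correction revision 4, background adjustment, quantile normalization and median polish, in Expression Console 1.4.1.46 per the file headers) and were deposited with 2 decimals, and quantile normalization removes any shift common to all genes. They equalled the value table of the series in 173076 of 173076 values. The deposited sheets of group averages, signed folds, p-values and FDR hold the authors' own comparisons and gave only gene symbols and coordinates (mm10). Their Ctrl-M averages lie on another scale (SD over probe sets 2.234, against 3.388 from the arrays), for which no reason was found in the sources used here.

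After 6640 rows of array controls were left out, all 22206 probe sets were fitted in limma 3.58.1 (R 4.3.3) as 3 group means, without a filter on signal, with 3 residual and 5.75 prior degrees of freedom. Adjusted p-values are Benjamini-Hochberg values computed across all 22206 of them. The call rule follows the thresholds of the methods, an unadjusted p under 0.05 and a fold of at least 1.2, worded there as log2 and read here as linear. Where a symbol had several probe sets, the brightest was used. Values are given by array for called genes, for the smallest p of each step and dose, for most members of isoform pairs (Hk1, Aldoa and Aldoc by their range), and for Gapdh, Sucla2, Pygm and Phka1. Of the other lists, called genes were named, and values for partners and regulators such as Mpc1, Pdk4, Hif1a, Txnip and Ppargc1a were added after they had been seen. Of 138 listed genes outside the 40, 137 were found by symbol. The genes, lists and isoform classes were chosen with earlier results of these data known. The fit was tested on simulated data. Besides leaving out each array, 10 alternatives were tried. Array number, 2 a group, limits the precision.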

Additional observations from a re-analysis of the deposited data

Results flagged for a closer look

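Ldhb and Phkg1 were flagged because their values at the 2 doses differed at an unadjusted p under 0.05 (limma). They were 2 of the 40 genes (5%), close to the share over the array given below. Ldhb had a log2 fold change of -0.715 in STEE50-M against STEE30-M (limma, adjusted p = 0.997) and Phkg1 one of 0.57 (adjusted p = 0.997). Against Ctrl-M, Ldhb had fold changes of 0.29 at the lower dose and -0.43 at the higher, whereas Phkg1 had -0.53 and 0.05. Neither probe set was above background, 4.61% of all probe sets passed the same threshold between the doses, and the part of low signal in these differences was not tested.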

How the results depend on the processing

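The counts of called genes were small and moved with the settings. In STEE30-M against Ctrl-M the count was 1 (Phkg1) and became 0 with only the 2 groups compared, in the unmoderated test, with a variance prior that follows the signal, with arrays centred on their medians, with dim probe sets left out (Phkg1 is one of them), with a fold of at least 1.5 and with an adjusted p. In STEE50-M against Ctrl-M the count was 1 (Sucla2) and became 2 (Pfkp and Sucla2) with only the 2 groups compared, with quantile normalization and with dim probe sets left out, 4 with a variance prior that follows the signal (Pfkp, Pgam1, Gys1 and Sucla2), and 0 with an adjusted p. In the unmoderated test it stayed at 1, but the gene was Pfkl in place of Sucla2. In STEE50-M against STEE30-M the count was 2 and became 1 in the unmoderated test (Phkg1), with the prior that follows the signal (Ldhb) and with a fold of at least 1.5 (Ldhb), and 0 with dim probe sets left out and with an adjusted p. Over all probe sets, arrays with the same replicate number did not deviate together (correlations of 0.02, 0.06 and -0.01). Such a correlation cannot exclude that some genes follow the replicate number. Myotube markers averaged higher on replicate 2 than on replicate 1 in Ctrl-M (-0.09 and -0.29), STEE30-M (0.11 and -0.29) and STEE50-M (0.65 and -0.09). Muscle-enriched genes were also higher on replicate 2 in each group and proliferation markers lower, but common forms were not higher in each. Whether the numbers pair the arrays was not settled. With replicate number as a block, STEE50-M against Ctrl-M had 2 called genes (Pfkp and Sucla2), and the counts of the other comparisons were unchanged at 1 and 2. Apart from these, the cause of a change was not tested.

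Leaving out 1 array at a time gave 0 to 1 called genes in STEE30-M, 0 to 4 in STEE50-M and 0 to 3 between the doses. In STEE50-M there were 0 without either Ctrl-M array. Without STEE50-M replicate 1 there were 4, all higher (Pfkm, Pgam2, Pygm and Sucla2), and without STEE50-M replicate 2 there were 3, all lower (Ldhb, Phka1 and Pdha1). The median of the 40 genes ranged from -0.0925 to 0.0725 in STEE50-M and from -0.085 to 0.0575 between the doses. That of the common forms in STEE50-M ranged from -0.36 to -0.1275 and that of the muscle-enriched genes between the doses from 0.0325 to 0.505, with the lone array of a group assumed to vary like the others. The medians of the muscle-enriched and common forms were tried in this way after seeing the data.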
